A study of Mus musculus with 4 samples.

Results

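Cycling immature neutrophils of mouse spleen were chosen by a rule on each cell barcode's own counts of unique molecular identifiers (UMIs, counted RNA molecules). Barcodes entered with 3000 UMIs or more, 250 detected genes or more and a mitochondrial share of no more than 10%. It was an immature neutrophil where Camp, Ngp and Ltf, 3 genes of specific granule proteins, made up at least 3% of its UMIs and Elane, Mpo and Prtn3, 3 genes of azurophil granule enzymes, less than 0.5%. It was cycling where Mki67, Top2a, Cenpf and Nusap1, genes of dividing cells, summed to at least 3 UMIs. The rule found 1781 such cells among 32857 kept barcodes, out of 64410 deposited. They numbered 4 in WT 1, 8 in WT 2, 1131 in D3TA 1 and 638 in D3TA 2, so the cells described are almost entirely those of the D3TA mice.

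Neutrophils arise from promyelocytes, which load their azurophil granules with enzymes such as neutrophil elastase (Elane). Promyelocytes turn into myelocytes, which make specific granule proteins such as the cathelicidin Camp, neutrophilic granule protein (Ngp) and lactoferrin (Ltf), and the myelocyte is the last stage of the lineage known to divide. In the adult mouse this takes place mainly in the bone marrow, with the spleen as a further site. D cyclins bind Cdk4 and Cdk6 in G1, phosphorylate the pocket proteins Rb1, Rbl1 and Rbl2 and so release E2F factors, and cyclin D3 is degraded by ubiquitin ligases after its phosphorylation near the C-terminus.

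The study compared spleen cells of 2 female mice with a heterozygous, global, constitutive Ccnd3 knock-in, made by CRISPR/Cas9 in C57BL/6J and called D3TA, with those of 2 female wild-type (WT) mice of matching age. In D3TA, threonine 283 of cyclin D3 is replaced by alanine in all tissues, so an effect inside neutrophils cannot be told apart from one of other cells. The knock-in mice were 12 and 16 months old, an age at which this model has severe signs of a myeloproliferative neoplasm, and the labels do not tie an age to a library. Red cells were lysed, no cell type was sorted, and each mouse gave 1 droplet library, named here by its genotype and its number in the labels.

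The replaced residue lies in the last exon of Ccnd3, exon 7 of 7, in GRCm38 at chr17:47598744-47598746 on the plus strand, within the coding sequence of the protein of 292 residues. The reference sequence around it is shown because this single codon defines the genotype, with the codon of threonine 283 in capitals, at chr17:47598732-47598758.
Ccnd3 codon 283: agtcagaccagcACTcccacagatgtc
UMI counts do not read this codon, so the Ccnd3 level is no check of the labels. Ccnd3 in cycling immature neutrophils stood at 246 CPM (UMIs of a gene per 1000000 UMIs, summed over the cells of a class) in WT 1 and 241 in WT 2, against 284 in D3TA 1 and 301 in D3TA 2. Both D3TA values lay above both WT values, inside the exact 95% Poisson intervals of the WT libraries, 159.5 to 364 and 178 to 318 CPM, which cover counting error only.

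The label was checked against its markers, of which Fcnb and Chil3 lie outside the rule. The levels of Camp and Ngp follow from the choice of cells. Camp was at 59584, 61038, 43231 and 35543 CPM in WT 1, WT 2, D3TA 1 and D3TA 2, and Ngp at 32104, 34411, 26438 and 26058 CPM. Fcnb, a ficolin of early granulocytes, was at 1065, 800, 559 and 481 CPM, and Chil3, a chitinase-like protein of myeloid cells, at 13173, 10775, 7763 and 8258 CPM. In the remaining cells of the same libraries, outside all neutrophil classes and with fewer than 3 cycle gene UMIs, Fcnb was at 0.117, 0.062, 2.91 and 3.73 CPM and Chil3 at 8.06, 7.37, 75.9 and 71.5 CPM, below the cycling immature neutrophils of the same library in all 4. All 4 markers that are not cycle genes, Camp and Ngp of the rule among them, were higher in both WT libraries than in both D3TA libraries. The share of all genes in that order is not given here, and the WT values rest on 4 and 8 cells. That order was not past the test for Fcnb or Chil3 in the comparison of genotypes given at the end.

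Markers of other cell types were read from 9 lists (B, plasma, T, erythroid, mast and basophil, megakaryocyte, eosinophil, monocyte and macrophage markers). No member with a mean of at least 20 CPM was over 1.5-fold higher or lower than in noncycling immature neutrophils in both D3TA libraries, and 0 members of the mast and basophil and of the megakaryocyte list reached that mean. Under it, 3 markers were past that fold, all higher. Vcam1, of the macrophage list, was at 168, 24.6, 20.2 and 28.2 CPM in cycling cells of WT 1, WT 2, D3TA 1 and D3TA 2 and at 0, 0, 3.28 and 6.08 CPM in noncycling cells, and the others were Ms4a2 and Prg2, each under 5 CPM. B cell markers summed to 375 CPM in WT 1, 786 in WT 2, 3813 in D3TA 1 and 2502 in D3TA 2. Immunoglobulin genes made up over 1% of UMIs in 6 of the D3TA 1 cells, at most 44.0%, and in 4 of the D3TA 2 cells, at most 20.3%, and in none of the WT cycling cells. Among noncycling cells they did so in 2 of the 3 cells of WT 1 (median 10.7% over the 3). Each noncycling value of WT 1 rests on these 3 cells. Of its 7 immature neutrophils in the genotype comparison, 2 were over 1%. In cycling cells Igkc was at 2761 CPM in D3TA 1 and 978 in D3TA 2. Without the cycling cells over 1% it was at 432 and 491 CPM. Erythroid markers summed to 725 CPM in D3TA 1 against 69.0 in D3TA 2, 39.4 in WT 1 and 14.7 in WT 2, so D3TA 1 stood apart there.

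Depth differed between cycling and noncycling immature neutrophils in every library. Cycling cells had a median of 28472.5, 24342, 18794 and 18233.5 UMIs in WT 1, WT 2, D3TA 1 and D3TA 2, and noncycling cells 4452, 11197, 9590 and 9166. Scrublet, which scores barcodes for holding 2 cells, marked 12.1% of the cycling cells of D3TA 1 and 7.05% of those of D3TA 2, against 8.72% and 4.31% of the noncycling cells and 0 of the 12 WT cycling cells. Of the D3TA cycling cells, 12 and 7 had a barcode that also occurred in another library, and 0 of those barcodes was a cycling immature neutrophil there. Whole libraries held 81416981 to 143811696 UMIs, and WT 1 held 25829 barcodes of which 6251 reached the limits, fewer than in any other library.

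**Figure D1:**
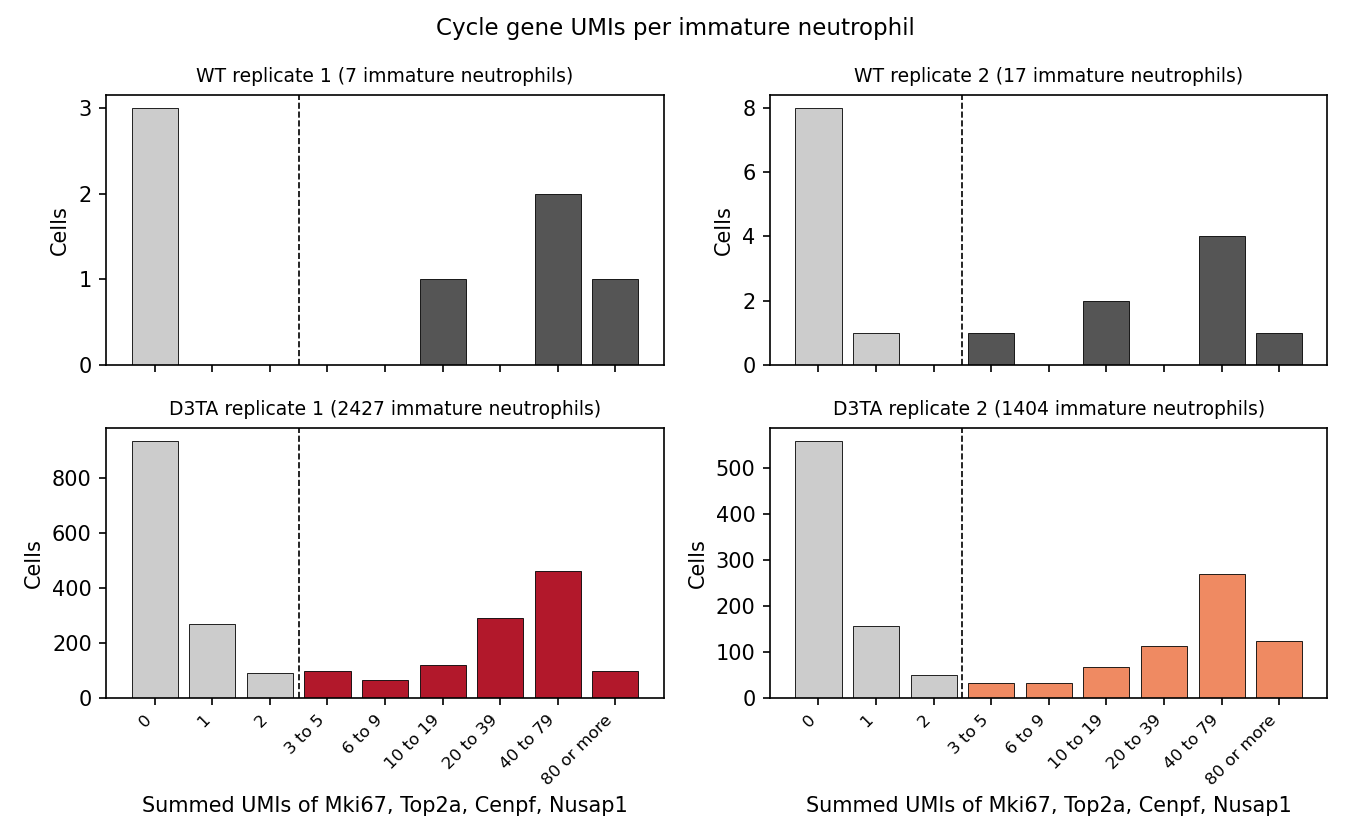
Number of immature neutrophils (vertical axis, cells) by their summed UMIs of Mki67, Top2a, Cenpf and Nusap1 (horizontal axis, in bins), 1 panel per library. Bars right of the dashed line are cycling by the rule. In both D3TA libraries most cells lie at 0 UMIs or at 20 and more, with few just above the line.

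The cycle genes that chose the cells were mostly absent or plentiful in the D3TA libraries, as the plot of cycle gene UMIs shows. Of the 2427 immature neutrophils of D3TA 1, 936 had 0 of these UMIs, 269 had 1 and 91 had 2, just outside the limit, while 58 had 3, 19 had 4 and 22 had 5, just inside it. In D3TA 1, 849 cells had 20 or more. Of the 1404 of D3TA 2, 560 had 0, 156 had 1, 50 had 2, 12 had 3, 9 had 4, 11 had 5 and 506 had 20 or more. The median cycling cell held 75.5, 46, 39 and 49 cycle gene UMIs in WT 1, WT 2, D3TA 1 and D3TA 2. On the side of the granule genes, 45 cycling cells of D3TA 1 and 21 of D3TA 2 lay at 3 to 4% Camp, Ngp and Ltf, and 58 and 14 cells with cycle genes lay just under the limit at 2 to 3%.

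Cycling immature neutrophils took a larger share of the spleen in the D3TA mice. They made up 0.0640% of kept barcodes in WT 1 (exact 95% interval 0.0174 to 0.164), 0.116% in WT 2 (0.050 to 0.228), 10.8% in D3TA 1 (10.2 to 11.4) and 6.89% in D3TA 2 (6.39 to 7.43). The groups did not overlap, and the means were 0.0899% ± 0.0366 (SD, n = 2) in WT and 8.86% ± 2.79 (SD, n = 2) in D3TA. With 2 mice against 2, an exact permutation test, two-sided, gave p = 0.33, the smallest it can give. In edgeR's quasi-likelihood test on the cell counts of 6 classes, which shares its estimate of spread over the classes, the log2 difference was 6.59 ± 0.88 (SE), with a Benjamini-Hochberg adjusted p of 2.18e-05 and a higher share in 2 of 2 D3TA libraries. The WT values rest on 12 cells.

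The neighbouring stages were higher in D3TA as well, but their differences were not all equally steady. Noncycling immature neutrophils differed by 6.82 ± 0.89 (log2, SE; adjusted p 2.18e-05 in the same test) and azurophil precursors, defined by at least 0.5% Elane, Mpo and Prtn3, by 3.87 ± 0.79 (adjusted p 7.37e-04). The precursor difference moved with the settings, to 6.28 at a minimum of 5000 UMIs, 6.01 without WT 1 and 3.02 without WT 2. Precursors numbered 15 in WT 1, with a median of 3555 UMIs, and 2 in WT 2. At a minimum of 5000 UMIs they numbered 1 and 2. Other cells with at least 2% S100a8 and S100a9 UMIs, where mature neutrophils fall, differed by 2.59 ± 0.70 (adjusted p 0.00437). Remaining cells with cycle genes differed by 0.62 ± 0.66 (adjusted p 0.369), so a difference of cycling cells outside the neutrophil classes was not detectable. They were 345 of 6251 kept barcodes in WT 1, 356 of 6910 in WT 2, 1057 of 10441 in D3TA 1 and 577 of 9255 in D3TA 2. Both D3TA shares lay above both WT shares, and the log2 difference was 0.22 without D3TA 1 and 0.92 without D3TA 2. Whether these class differences differ from each other was not tested.

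**Figure D2:**
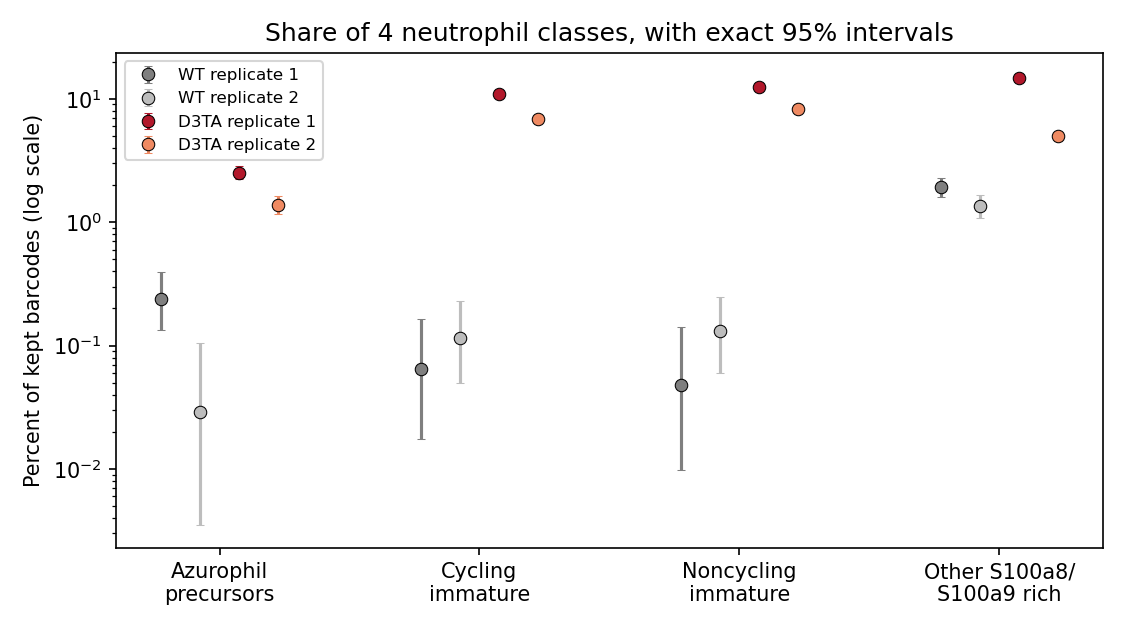
Percent of kept barcodes (vertical axis, log scale) in 4 neutrophil classes, 1 point per library with its exact 95% interval for counting error. In the cycling immature class the WT libraries stand at 0.0640% and 0.116% and the D3TA libraries at 10.8% and 6.89%.

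The division of immature neutrophils into cycling and noncycling was not resolved between the genotypes. Of the immature neutrophils, 4 of 7 were cycling in WT 1 (57.1%, exact 95% interval 18.4 to 90.1), 8 of 17 in WT 2 (47.1%, 23.0 to 72.2), 46.6% in D3TA 1 (44.6 to 48.6) and 45.4% in D3TA 2 (42.8 to 48.1). Both D3TA values lay just under both WT values and well within the WT intervals. The mean difference was -6.08 percentage points (exact permutation test, two-sided, p = 0.33, the smallest possible) and its sign turned at a minimum of 1000 UMIs, where it was 2.99. After each cell was thinned to 3000 UMIs the cycling part was 57.1%, 29.4%, 36.8% and 39.7% in WT 1, WT 2, D3TA 1 and D3TA 2, so the D3TA libraries then lay between the WT libraries.

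The transcripts that set cycling apart from noncycling immature neutrophils were next described in the 2 D3TA libraries, which hold enough of both. The rule itself makes this contrast, so the values are a description with no test. A gene was counted as higher or lower where its CPM differed over 1.5-fold the same way in both libraries, on the scale of log2 (CPM + 1). Among 5157 genes with a mean of at least 20 CPM, 1189 were higher (23.1%) and 593 lower (11.5%), with a median log2 ratio of 0.10 over all of them. CPM compares shares of a cell's UMIs, and cycling cells held more UMIs per cell.

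Genes of DNA replication were higher throughout. All 35 S phase genes that reached 20 CPM, of 44 in the list, were higher, with a median log2 ratio of 3.46. Pcna, the sliding clamp of DNA polymerases, was at 59.2, 187, 214 and 307 CPM in cycling cells of WT 1, WT 2, D3TA 1 and D3TA 2, against 0, 9.05, 25.2 and 30.0 in noncycling cells. In every library the cycling cells were the higher. Rrm2, a subunit of the reductase that makes deoxynucleotides, was at 255 and 260.0 CPM in the cycling cells of D3TA 1 and D3TA 2 against 5.15 and 5.003. Slbp, the histone mRNA binding protein, had a ratio of 2.11 and Atad2, a chromatin ATPase, one of 3.54 on the log2 scale. Under median-ratio scaling 34 of the 35 stayed past the fold.

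Genes of G2 and mitosis had larger ratios, but the rule splits the cells on 4 genes of this list. The order of G2/M over S phase genes therefore cannot be read apart from the choice of cells. Outside the 4 genes of the rule, 45 of the 46 measured G2/M genes were higher, with a median log2 ratio of 4.77. The exception was Lbr, the lamin B receptor, at 322 and 458 CPM in cycling against 262 and 329 in noncycling cells of D3TA 1 and D3TA 2. Smc4, a condensin subunit, was at 759, 408, 569 and 743 CPM in cycling cells of WT 1, WT 2, D3TA 1 and D3TA 2 and at 49.95, 45.3, 72.8 and 89.2 in noncycling cells. Hmgb2, a chromatin protein, was at 5048, 4376, 4898 and 5607 CPM against 1149, 1132, 1406 and 1525, so noncycling cells also held it in all libraries. The rule genes Mki67 and Top2a stood at 897, 604, 763 and 1079 CPM and at 976, 550, 749 and 970 CPM in the cycling cells, and their ratios follow from the choice of cells.

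Histone genes that are expressed during replication were among the highest ratios. All 11 of 17 that reached 20 CPM were higher, with a median log2 ratio of 4.79. Hist1h2ap was at 1568, 776, 1111 and 1191 CPM in cycling cells of WT 1, WT 2, D3TA 1 and D3TA 2 against 0, 9.05, 20.4 and 13.8 in noncycling cells. Hist1h1b, a linker histone, was at 986, 958, 910.5 and 598 CPM against 0, 9.05, 24.6 and 10.8, so cycling and noncycling cells did not overlap in it. These genes have near-identical copies, so the level of any single copy is uncertain.

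The 12 genes with the highest ratios among those of at least 50 CPM outside the rule were Hist1h2ab, Hist1h3c, Hist1h2ap, Pclaf, Kif11, Hist1h2ae, Cenpp, Spc25, Tpx2, Ube2c, Cdca8 and Kif15, with log2 ratios from 5.70 to 6.21. Pclaf binds the clamp Pcna, Kif11, Kif15 and Tpx2 act in the spindle, Spc25 and Cenpp belong to the kinetochore and Ube2c is a ubiquitin-conjugating enzyme of mitotic exit. Kif11 was at 256, 221, 227 and 324 CPM in cycling cells of WT 1, WT 2, D3TA 1 and D3TA 2 and at 0, 0, 3.51 and 3.79 CPM in noncycling cells.

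Promoter sequence was read for these gene groups from RefSeq windows of GRCm38.p6 that run from 250 bases before to 50 bases after each transcription start. The search covered 3 motifs on both strands. The letters TTTGAA are the cell cycle homology region, known as a site of late cell cycle genes, CCAAT is the box of nuclear factor Y, and TTCCCGC is an E2F site. TTTGAA was in 64.2% of the 53 windows of G2/M genes (48 of the 54 listed genes were found), in 16.7% of the 36 windows of S phase genes (32 of 44) and in 17.9% of all 32851 windows. CCAAT was in 75.5%, 69.4% and 37.4% of them, and TTCCCGC in 1.89%, 47.2% and 4.60%. Of 21 windows of genes of late granules and mature neutrophils, TTTGAA was in 9.52%, CCAAT in 42.9% and TTCCCGC in 0. The 0 among 21 says only that these letters were not in these windows.

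The 250 bases before the start are printed for 3 genes of these groups, 5′ to 3′ on the strand of the gene, with matches to the 3 motifs in capitals. Kif11 had the highest ratio among listed G2/M genes outside the rule, Ube2c was next to hold both TTTGAA and CCAAT in this stretch among the 7 of those 12 genes that were read, and Dtl, a substrate receptor of a ubiquitin ligase of S phase, had the highest ratio among S phase genes with TTCCCGC in it. The Ube2c and Dtl choices were made after the motifs were seen. Kif11 lies at chr19:37376132-37376381 on the plus strand, Ube2c at chr2:164769679-164769928 on the plus strand and Dtl at chr1:191575545-191575794 on the minus strand.
Kif11: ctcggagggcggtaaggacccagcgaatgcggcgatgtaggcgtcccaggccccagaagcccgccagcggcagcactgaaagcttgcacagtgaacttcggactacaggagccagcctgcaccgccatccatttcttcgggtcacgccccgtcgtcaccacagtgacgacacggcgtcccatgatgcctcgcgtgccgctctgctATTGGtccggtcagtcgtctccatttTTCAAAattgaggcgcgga
Ube2c: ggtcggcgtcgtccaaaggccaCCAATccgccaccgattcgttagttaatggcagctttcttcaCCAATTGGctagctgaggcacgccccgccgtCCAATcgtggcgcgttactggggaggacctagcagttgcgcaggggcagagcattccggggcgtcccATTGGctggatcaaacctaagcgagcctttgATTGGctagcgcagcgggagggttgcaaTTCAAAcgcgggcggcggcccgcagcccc
Dtl: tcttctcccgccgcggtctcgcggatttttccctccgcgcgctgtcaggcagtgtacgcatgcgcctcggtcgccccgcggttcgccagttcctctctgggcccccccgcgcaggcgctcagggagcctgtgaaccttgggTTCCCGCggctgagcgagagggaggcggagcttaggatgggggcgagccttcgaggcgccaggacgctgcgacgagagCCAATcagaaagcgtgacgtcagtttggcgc
Kif11 held TTTGAA 1 time and CCAAT 1 time, Ube2c held them 1 and 6 times, and Dtl held CCAAT 1 time and TTCCCGC 1 time. Ube2c was at 956, 378, 552 and 521 CPM in cycling cells of WT 1, WT 2, D3TA 1 and D3TA 2 against 49.95, 0, 9.40 and 8.65 in noncycling cells, and Dtl at 0, 24.6, 47.9 and 66.9 against 0, 0, 2.76 and 1.49. A match is a description of the letters and shows no binding.

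**Figure D3:**
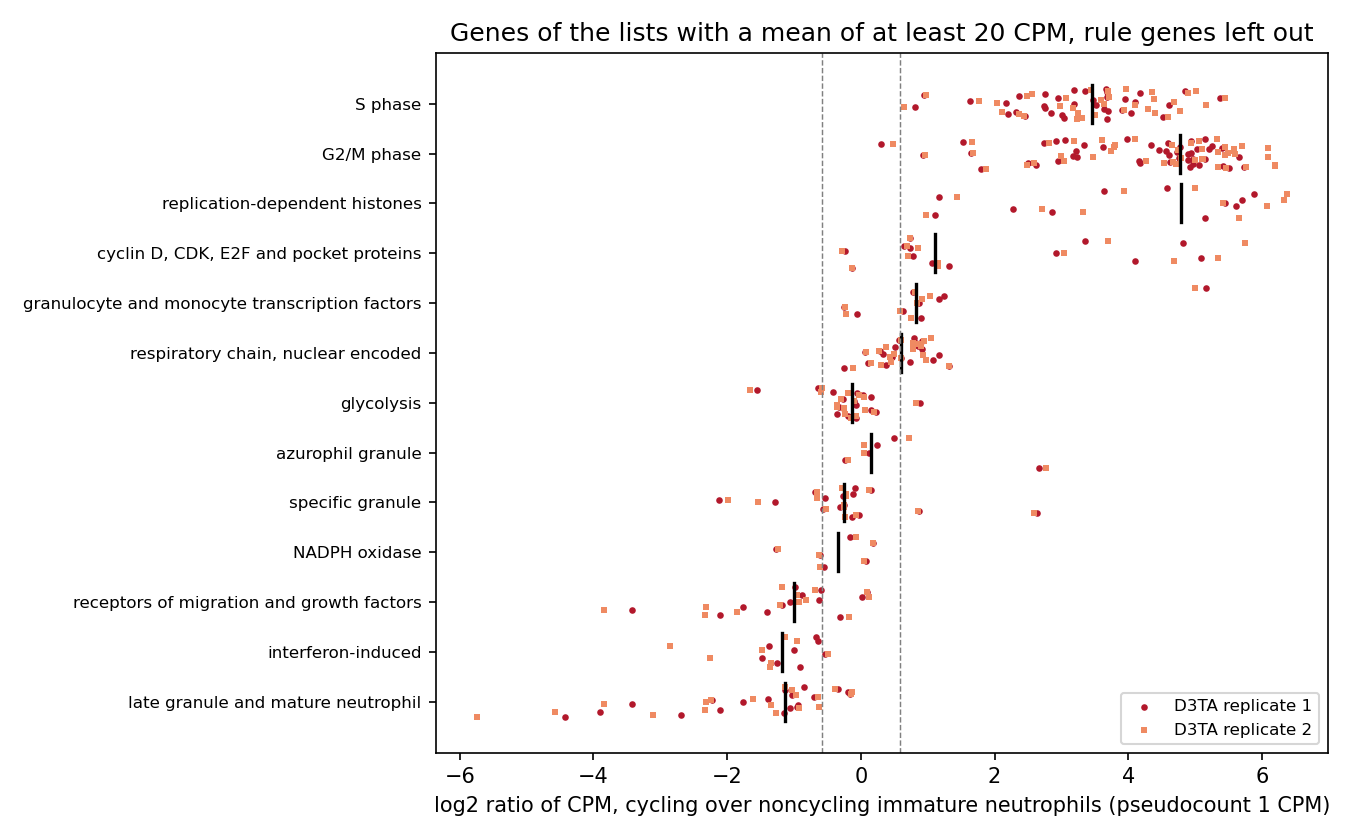
Log2 ratio of CPM between cycling and noncycling immature neutrophils (horizontal axis, pseudocount 1 CPM) for genes of 13 lists (rows), 1 point per gene and D3TA library, without the genes of the rule. Black bars are list medians and dashed lines the 1.5-fold limits, and the medians run from 4.79 for histones to -1.18 for interferon-induced genes.

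Within the cycling cells, genes outside the lists were ranked by the correlation of their log values with the summed cycle genes of the rule. H2afx (mean Pearson r of 0.742 over both D3TA libraries), Prc1 (0.740), Calm2 (0.726), Tuba1b (0.724), Smc2 (0.720), Ube2s (0.707), Tubb5 (0.683) and Arl6ip1 (0.667) were most alike, over 1131 and 638 cells. These are descriptions across cells that share their library and depth.

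The D cyclin genes did not follow the cycle genes. Ccnd3 was at 284 and 301 CPM in cycling and at 311 and 330 CPM in noncycling cells of D3TA 1 and D3TA 2, a log2 ratio of -0.13 that is not past the fold. Across the neutrophil classes of the D3TA libraries Ccnd3 was at 148 and 134 CPM in azurophil precursors and at 509 and 510.2 CPM in the other cells rich in S100a8 and S100a9. Among these classes precursors held the lowest share in both libraries and the S100-rich cells the highest. The remaining cells of D3TA 1 and D3TA 2, outside the neutrophil classes, held Ccnd3 at 480 and 592 CPM. The S100-rich class was mixed, with 13.3% and 14.2% of its cells marked by Scrublet and B cell markers at 14620 and 27632 CPM. The part of other cells' RNA in its Ccnd3 level was not tested. Ccnd2 was at 8.65 and 8.46 CPM in the cycling cells of D3TA 1 and D3TA 2, where the remaining cells of these spleens held 180.3 and 153 CPM, and at 0 in the 12 WT cells, which allows up to 29.6 CPM in WT 1 and 14.7 in WT 2. Ccnd1 was at 0.758 and 0.663 CPM in D3TA 1 and D3TA 2 and at 0 in WT, again with 18.2 to 20.4 CPM in the remaining cells of the 4 libraries.

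The 3 kinases were higher in cycling than in noncycling cells of both D3TA libraries, Cdk6 and Cdk4 being lower than in precursors and Cdk2 higher. Cdk6, a partner of D cyclins, was at 29.6, 63.8, 49.8 and 68.1 CPM in cycling cells of WT 1, WT 2, D3TA 1 and D3TA 2, at 19.3 and 30.0 in noncycling cells of D3TA 1 and D3TA 2, and at 375 and 670.0 CPM in their precursors. Cdk4, the other partner, was at 22.3 and 16.6 CPM in cycling, 5.597 and 2.57 in noncycling cells and 161 and 134 in precursors of D3TA 1 and D3TA 2, but did not reach the mean of 20 CPM. Cdk2, the partner of cyclins E and A, was at 51.6 and 84.8 CPM in cycling cells against 24.3 and 37.7 in noncycling cells and 39.1 and 54.6 in precursors, so here cycling cells held the highest share in both libraries.

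Cyclins, pocket proteins and E2F factors were mostly higher in cycling cells. Of the 13 genes of this list that reached 20 CPM, of 22, 11 were higher and 0 lower, with a median log2 ratio of 1.10 (10 under median-ratio scaling). The other 2 were Ccnd3 and Rbl2, a pocket protein of resting cells, at 26.5 and 29.9 CPM in cycling against 31.4 and 36.8 in noncycling cells. Ccna2, the cyclin of S phase and G2, was at 128, 88.4, 150.3 and 187 CPM in cycling cells of WT 1, WT 2, D3TA 1 and D3TA 2 and at 0, 0, 3.43 and 3.65 in noncycling cells. E2f7, an E2F repressor, had a log2 ratio of 5.29 and Rbl1 one of 2.98, against 0.75 for Rb1, 0.80 for E2f2 and 0.73 for Tfdp1, a partner of E2F factors. Foxm1, the transcription factor of G2 genes, was at 59.2, 19.6, 45.5 and 65.7 CPM in cycling cells and at 0, 0, 0.299 and 1.08 in noncycling cells.

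Inhibitors of cyclin-dependent kinases were present in the dividing cells, where 2 of the 3 that reached 20 CPM, of 7, were higher and 0 lower. Cdkn2c, an inhibitor of Cdk4 and Cdk6, was at 118, 63.8, 88.4 and 95.9 CPM in cycling cells of WT 1, WT 2, D3TA 1 and D3TA 2, against 0, 9.05, 11.2 and 13.9 in noncycling cells. Cdkn2d, of the same family, was at 276, 216, 293 and 228 CPM in cycling cells against 149.9, 154, 163 and 119.9, and in every library the cycling cells were the higher. In precursors of D3TA 1 and D3TA 2 Cdkn2d was at 114 and 62.6 CPM and Cdkn2c at 44.9 and 46.2, under the cycling immature cells in both. Cdkn1b, an inhibitor of Cdk2 complexes, did not differ past the fold, at 63.6 and 75.4 CPM in cycling and 65.1 and 77.5 in noncycling cells of D3TA 1 and D3TA 2. Cdkn1a did not reach the mean of 20 CPM but had a log2 ratio of 3.42. It was at 21.6 and 22.5 CPM in cycling against 0.970 and 1.35 in noncycling cells of D3TA 1 and D3TA 2. Cdkn2a and Cdkn2b were at most 3.21 CPM in any D3TA cycling sum.

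Genes of cyclin D degradation were mostly within the fold. Of 6 that reached 20 CPM, 2 were higher and 0 lower (1 higher under median-ratio scaling). Ambra1, the receptor of the ligase for D cyclins, was at 59.2, 133, 86.6 and 113 CPM in cycling cells of WT 1, WT 2, D3TA 1 and D3TA 2 and at 110.0 and 154 in noncycling cells of D3TA 1 and D3TA 2, not past the fold. Cul1, a cullin scaffold, was higher with 70.9 and 86.4 against 35.5 and 53.0 CPM, and Gsk3b, a kinase known to mark D cyclins, was level with 136 and 192 against 140.4 and 191 CPM.

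**Figure D4:**
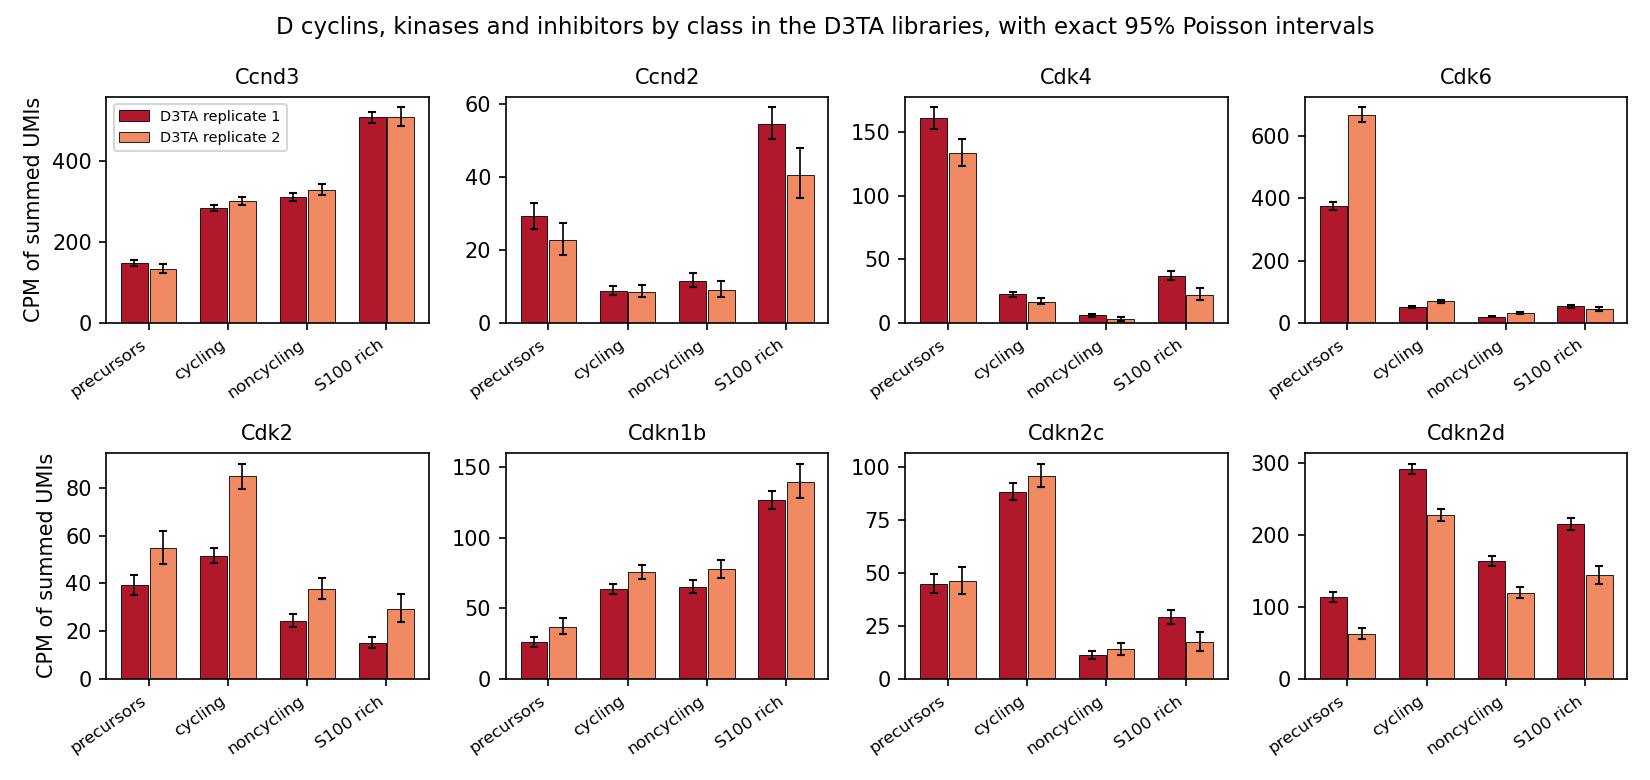
CPM of summed UMIs (vertical axis) of 8 genes in 4 neutrophil classes of the D3TA libraries, with exact 95% Poisson intervals for counting error. Ccnd3 stands at 148 and 134 CPM in precursors and at 509 and 510.2 in S100-rich cells, a mixed class. Cdk6 stands at 375 and 670.0 in precursors and at 49.8 and 68.1 in cycling immature cells.

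Of the listed granulocyte and monocyte transcription factors, 7 of the 9 that reached 20 CPM were higher and 0 lower, with a median log2 ratio of 0.83. The 7 were Foxm1, which belongs to the cell cycle rather than the lineage, Id1, Myb, Runx1, Cebpb, Id2 and Cebpe. Cebpe, which drives specific granule genes, had log2 ratios of 0.63 and 0.59, just past the fold, and was the 1 that was not past it under median-ratio scaling. It was at 710, 525, 541 and 418 CPM in cycling cells of WT 1, WT 2, D3TA 1 and D3TA 2 and at 99.9, 254, 349 and 277 in noncycling cells. Runx1 was at 438 and 618 CPM against 240 and 344, and Myb, a factor of progenitors, at 55.1 and 64.9 against 23.9 and 33.8 in D3TA 1 and D3TA 2. Spi1 and Cebpd were not past the fold, with log2 ratios of -0.25 and -0.13. Cebpa, a factor of earlier granulocyte stages, was at 2.77 and 3.23 CPM in the cycling cells against 32.0 and 44.5 CPM in precursors.

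Azurophil granule genes differed from one another. Elane was at 186 and 100.2 CPM in cycling cells of D3TA 1 and D3TA 2, at 19.3 and 18.3 in noncycling cells and at 18.2 and 17.7 in the remaining cells of the same libraries. Prtn3 followed with 203 and 108 CPM against 27.2 and 25.6 and against 23.5 and 20.6 in the remaining cells. Mpo was at 24.8 and 24.5 CPM in cycling, 22.6 and 30.2 in noncycling and 23.5 and 29.7 in the remaining cells, so its level was alike inside and outside the neutrophil classes. Elane, Prtn3 and Mpo are capped by the rule. Outside it, 1 of 5 azurophil genes was past the fold, a share near that of all genes. It was Ms4a3, a membrane protein of granulocyte progenitors, with 179 and 136 CPM against 27.4 and 19.2.

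Specific granule genes were mostly within the fold. Outside the rule genes, 2 of 15 were higher and 3 lower (5 under median-ratio scaling), with a median log2 ratio of -0.25. The 2 higher were Fcnb, at 559 and 481 CPM in cycling against 88.8 and 79.4 in noncycling cells of D3TA 1 and D3TA 2, and Chil3, at 7763 and 8258 against 4261 and 4580. Lcn2, the iron-binding lipocalin of specific granules, was at 12003 and 9449 CPM in cycling against 13169 and 11164 in noncycling cells, not past the fold. Lyz2, a lysozyme, Olfm4 and Ceacam10 were the 3 lower, with log2 ratios of -0.67, -1.41 and -2.06.

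Genes of late granules and of mature neutrophils were lower in cycling cells in 16 of the 19 that reached 20 CPM and higher in 0, with a median log2 ratio of -1.14. Mmp8, a collagenase of late granule stages, was at 0, 9.82, 58.4 and 24.0 CPM in cycling cells of WT 1, WT 2, D3TA 1 and D3TA 2 and at 749, 2789, 1272 and 1340 CPM in noncycling cells. No cycling value came near a noncycling one, and Mmp8 was the gene with the lowest ratio, -5.09. Retnlg, a resistin-like protein of mature neutrophils, was at 291 and 156 CPM against 4376 and 3749 in D3TA 1 and D3TA 2, and Mmp9, gelatinase B, at 210 and 180 against 1359 and 1561. S100a8 and S100a9, the calprotectin subunits, were not past the fold, with log2 ratios of -0.16 and -0.16.

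Receptors of migration and of growth factors were mostly lower. Of 13 receptors that reached 20 CPM, 10 were lower and 0 higher. Cxcr4, which retains neutrophils in the marrow, was not past the fold. Cxcr2, a chemokine receptor, was at 49.3, 58.9, 52.6 and 49.9 CPM in cycling cells of WT 1, WT 2, D3TA 1 and D3TA 2 and at 149.9, 235, 230 and 256 in noncycling cells, without overlap. Fpr2, a formyl peptide receptor, was at 116 and 115 against 396 and 575 CPM, and Csf3r, the receptor of G-CSF, at 105 and 118 against 220 and 225 in D3TA 1 and D3TA 2. Of the 12 genes with the lowest ratios, Fpr1, Adam8, Bmx and Clec4e had log2 ratios of -3.64, -2.86, -2.51 and -2.23.

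Other programmes had smaller ratios or mixed directions. Interferon-induced genes were lower in 7 of 8 (8 under median-ratio scaling) and higher in 0, and D3TA 1 held more of them, with Ifitm3 at 1167 CPM in cycling cells of D3TA 1 against 386 in D3TA 2, 631 in WT 1 and 525 in WT 2. Nuclear-encoded genes of the respiratory chain were higher in 10 of 20 and lower in 0, among them Ndufa4 with 340 and 341 CPM against 135 and 136 in D3TA 1 and D3TA 2. Of 17 glycolysis genes 1 was higher, Tpi1, and 2 lower, and Slc2a3, a glucose transporter, was at 143 and 149 against 420.0 and 470.1 CPM. The 3 ribosome biogenesis genes that reached 20 CPM, Npm1, Ncl and Ebna1bp2, were all higher, with log2 ratios of 0.88, 1.08 and 0.78. Of the 6 subunits of the phagocyte NADPH oxidase 0 were higher and 2 lower (3 under median-ratio scaling), and Cybb, its catalytic subunit, was at 1605 and 1973 CPM against 2352 and 3020. Of 12 immediate early and heat shock genes 3 were higher (2 under median-ratio scaling), among them the chaperones Hsp90aa1 and Hspa8 with log2 ratios of 1.73 and 0.82, and 5 were lower, among them Fos, Junb and Egr1.

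S phase transcripts were found in most of the cycling cells beside the G2/M transcripts. After thinning to 3000 UMIs, 78.5% of cycling cells of D3TA 1 and 79.5% of D3TA 2 held at least 3 UMIs of the 44 S phase genes, against 8.95% and 10.7% of noncycling cells. Without thinning these were 97.1% and 97.5% against 54.3% and 60.1%. The median cycling cell held 8 and 10 S phase UMIs and 39 and 44 UMIs of 50 G2/M genes outside the rule after thinning, where noncycling cells held 1 and 1 and 7 and 8, and precursors 14 and 17 and 25 and 25. S phase UMIs outnumbered G2/M UMIs in 5.66% of cycling cells of D3TA 1 (exact 95% interval 4.38 to 7.17) and in 6.11% of D3TA 2 (4.38 to 8.26), and in 0 of 4 cells of WT 1 (0 to 60.2) and 0 of 8 of WT 2 (0 to 36.9). Among precursors that share was 15.2% and 23.4%. Cycling cells, unlike precursors, were chosen on 4 genes of the G2/M list, so these shares cannot be compared between the classes. With Hmgb2 left out, 17.4% and 16.5% of cycling cells had more S phase UMIs, so the shares are no count of cells in a phase.

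The cycling cells were then ordered by Ltf, 1 of the 3 granule genes of the rule, and divided into 4 equal parts within each D3TA library. From the lowest to the highest part, Elane went from 499 over 86.0 and 44.4 to 27.7 CPM in D3TA 1 and from 269 over 40.9 and 26.9 to 18.3 CPM in D3TA 2. Fcnb went from 773 to 434 CPM and from 664 to 389 CPM, and Ms4a3 from 260 to 123 and from 185 to 94.7 CPM. Cd177, a surface protein of granulocytes, went the other way, from 659 to 1099 and from 1013 to 1465 CPM, and so did Ngp, from 19044 to 31286 and from 20159 to 31627 CPM. Ngp, Ltf and Elane are rule genes, Elane being capped by the rule, and Cd177 is of the specific granule list. The remaining cells held Elane at 18.2 CPM in D3TA 1 and 17.7 in D3TA 2, near its level in the highest part of D3TA 2. Genes of later stages had no even course along the order. Mmp8 was at 53.5, 41.7, 47.3 and 96.4 CPM over the 4 parts of D3TA 1. In D3TA 2 Mmp8 was at 21.3, 9.72, 6.80 and 63.9 CPM, so the part highest in Ltf held the most in both. Retnlg was highest in part 3 of D3TA 1, at 360 CPM, and in part 4 of D3TA 2, at 306 CPM. Cxcr2 lay between 44.5 and 56.5 CPM in all parts.

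Cycle genes had no common direction along that order. Mki67 was at 696, 788, 795 and 792 CPM over the 4 parts in D3TA 1 and at 1018, 1180.3, 1134 and 982 CPM in D3TA 2. Cdk1, the kinase of mitosis, went from 199 to 214 CPM in D3TA 1 and from 215 to 159 CPM in D3TA 2. S phase genes summed to 3358, 3232, 2845 and 3042 CPM in D3TA 1 and to 3808, 3525, 3415 and 3881 CPM in D3TA 2. Cdk6 went down in both, from 63.1 to 38.4 and from 92.1 to 53.0 CPM, while Ccnd3 went from 308 to 262 in D3TA 1 and from 332 to 294 in D3TA 2. Since the order uses a rule gene and each part sums to the same total, these profiles are descriptions, and the median UMIs per cell also fell along it, from 22881 to 16677.5 and from 21599.5 to 15285.

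**Figure D5:**
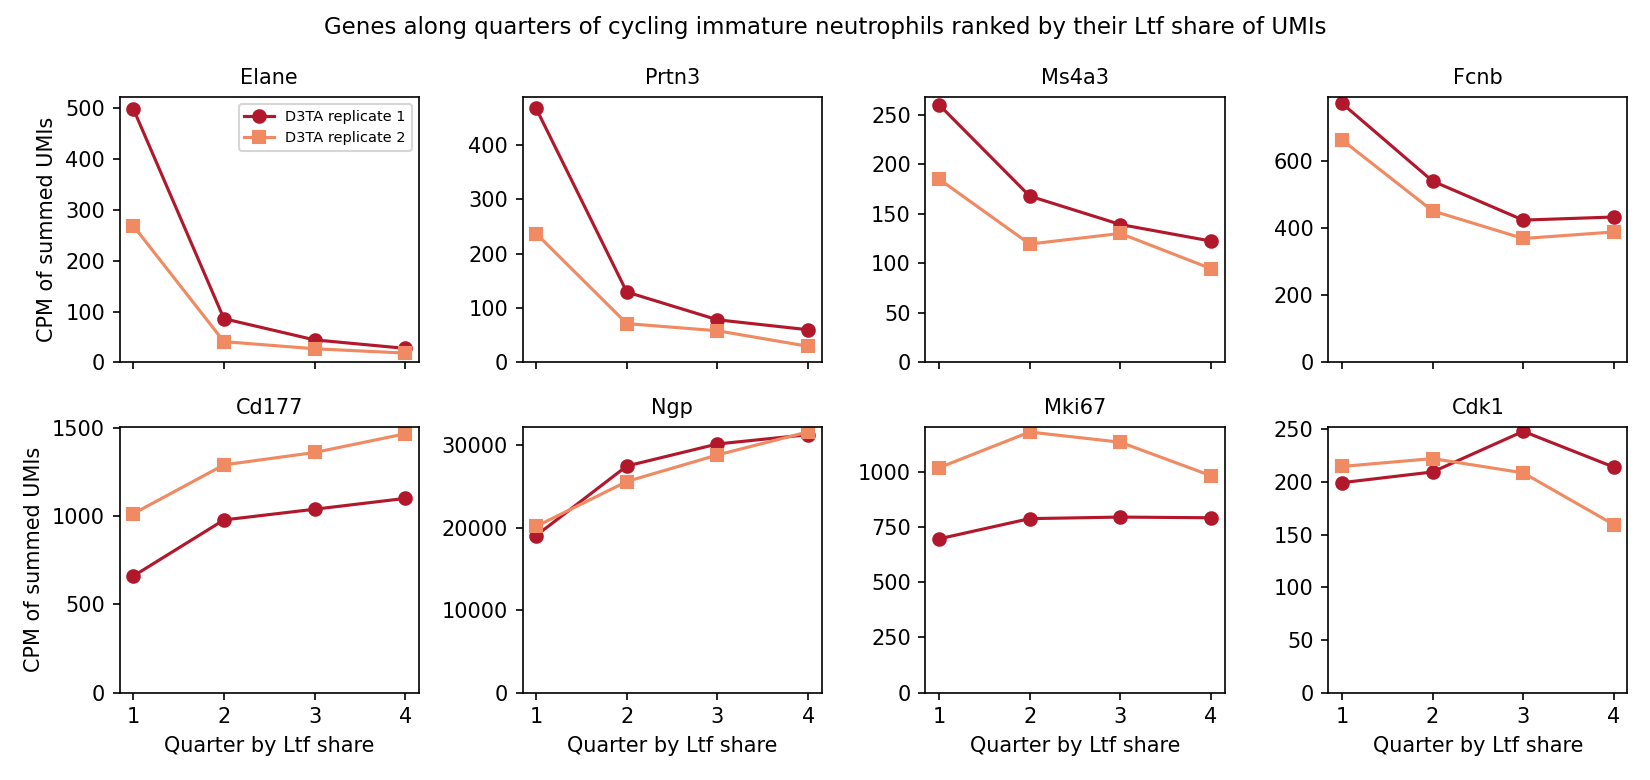
CPM of summed UMIs (vertical axis) of 8 genes in 4 equal parts of the cycling cells of each D3TA library, ranked by their Ltf share of UMIs (horizontal axis, 1 lowest, 4 highest). Elane goes from 499 to 27.7 CPM in D3TA 1 and from 269 to 18.3 in D3TA 2. Mki67 stays between 696 and 795 CPM and between 982 and 1180.3 CPM. Elane, Prtn3, Ngp and Mki67 are genes of the rule.

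Genotypes were compared within all immature neutrophils, cycling and noncycling together, since WT 1 held too few cycling cells for the planned fit of those alone. UMIs were summed per library over 7, 17, 2427 and 1404 cells of WT 1, WT 2, D3TA 1 and D3TA 2. In edgeR's quasi-likelihood test, 23 of 11214 genes were higher (0.205%) and 5 lower (0.0446%) in D3TA at an adjusted p under 0.05. Of the 23 higher, 15 had at most 5 UMIs in both WT libraries together, and without WT 1 no gene passed in either direction (834 had an unadjusted p under 0.05). A fit of the cycling cells alone, added after the cell counts were seen, gave 19 higher (0.182%) and 10 lower (0.0957%) of 10452 genes, of which 14 were called in both fits.

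Immediate early and heat shock genes were the list with the most calls. Of 16 tested, 6 were called higher and 0 lower in all immature neutrophils, Fos, Jun, Junb, Jund, Egr1 and Hspa1b, with a list median of 1.31 against 0.16 for all genes. Among cycling cells, Fos, a subunit of the factor AP-1, was at 9.86 and 14.7 CPM in WT 1 and WT 2 and at 102 and 135 CPM in D3TA 1 and D3TA 2, and Jun, its partner, at 49.3 and 19.6 against 122 and 151. The groups did not overlap in either gene. In the fit of cycling cells alone the log2 difference of Fos was 3.08 ± 0.56 (SE, adjusted p 0.00244) and that of Jun 2.08 ± 0.46 (adjusted p 0.0311), with Fos at 1 and 3 UMIs in WT 1 and WT 2. In that fit no gene was called higher without WT 1 (831 in either direction had an unadjusted p under 0.05), DESeq2 called 1 higher, and neither Fos nor Jun passed in DESeq2 or when WT 1 or WT 2 was left out. In the remaining cells Fos was at 9.39 and 10.8 CPM in WT and 60.5 and 57.5 in D3TA, so the same order was present outside the neutrophils. The part of that order in the difference was not tested.

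Elane and Mpo are among the genes counted as called. The rule used both, so their levels are a description, and of the 7 azurophil genes outside the rule 0 were called in either edgeR fit. In cycling cells Elane was at 19.7 and 14.7 CPM in WT 1 and WT 2, from 2 and 3 UMIs, and at 186 and 100.2 CPM in D3TA 1 and D3TA 2. In the remaining cells Elane was at 0.156 and 0.0155 CPM in WT and at 18.2 and 17.7 CPM in D3TA. Both D3TA cycling sums lay above that level. Mpo in all immature neutrophils was at 0 UMIs in WT and at 24.0 and 26.7 CPM in D3TA, and at 23.5 and 29.7 CPM in the remaining D3TA cells.

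Of the marker lists, 3 of 7 erythroid markers and 0 of 9 T cell markers were called higher in all immature neutrophils. The T cell markers still had a median log2 difference of 8.52 there, against 0.16 for all genes. In cycling cells T cell markers summed to 9.86 and 19.6 CPM in WT 1 and WT 2 and to 151 and 78.6 CPM in D3TA 1 and D3TA 2. The fit of cycling cells alone called 1 of 6 erythroid, 2 of 10 B cell and 0 of 9 T cell markers higher. By fitted change the 8 named genes higher in all immature neutrophils were Ms4a4b, Prkca, Hspa1b, Hba-a1, Ccl5, Skap1, Hba-a2 and Fyn. Ccl5, a chemokine of T and natural killer cells, was at 0 and 19.6 CPM in cycling cells of WT 1 and WT 2 and at 513 and 30.2 CPM in D3TA 1 and D3TA 2, where the remaining cells held 341, 434, 6465 and 531 CPM. D3TA 1 held the most Ccl5 in both. Hba-a1, an alpha globin with a near-identical copy in Hba-a2, was at 0 and 0 in WT and at 167 and 6.80 CPM in D3TA. Ms4a4b, Prkca and Hspa1b were at 0 UMIs in WT and were at least 4.90-fold, 4.73-fold and 4.54-fold higher in D3TA, counted from 3 UMIs over the WT group. The part of those cells' RNA in these calls was not tested.

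Fewer genes were lower in D3TA, and most from few WT UMIs. In the cycling cells alone, Orm1, an acute phase protein also made by granulocytes, was at 404 and 280 CPM in WT 1 and WT 2 and at 155 and 111 CPM in D3TA 1 and D3TA 2, a log2 difference of -1.39 ± 0.31 (SE, adjusted p 0.0311). Chil1, a chitinase-like protein of specific granules, was at 197 and 221 against 89.4 and 79.003 CPM, a difference of -1.40 ± 0.32 (adjusted p 0.0320). In both genes the groups did not overlap, and neither passed when WT 1 or WT 2 was left out. Retnlg was called higher in that fit, at 59.2 and 49.1 CPM in WT and 291 and 156 in D3TA, with 2.02 ± 0.42 (adjusted p 0.0185), and did not pass when D3TA 1, WT 1 or WT 2 was left out. Adgrg7, Cstdc4, Ctnna3 and Hist1h4n were the named genes lower in all immature neutrophils, and Cstdc4 and Ctnna3 had all their WT UMIs in WT 2.

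Of the S phase, G2/M, histone, cyclin and inhibitor lists no gene was called between genotypes in either edgeR fit. Of 43 S phase and 54 G2/M genes, 4 of them rule genes, tested in all immature neutrophils 0 were called, with medians of 0.27 and -0.11, and of 21 genes of cyclins, kinases, E2F and pocket proteins 0, with a median of 0.43. The log2 difference of Ccnd3 was 0.17 ± 0.32 (SE, adjusted p 0.965) in that fit and 0.18 ± 0.30 (adjusted p 0.926) in cycling cells alone. That of Fcnb was -1.01 ± 0.33 (adjusted p 0.312). On counts drawn with known changes, this fit recovered 34% of 4-fold and 3% of 2-fold changes, so smaller differences were not detectable with 7 and 17 WT cells.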

How the data were processed

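Raw UMI counts per gene and barcode were deposited. Per the file headers, Cell Ranger 7.0.1 produced them, and the submitters' processing notes name mm10. The sources used here give neither the annotation release nor whether intronic reads were counted. The members of the class and the gene lists were chosen with earlier results of these data known. Counts of all 32285 genes were summed per library and class.

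Shares of 6 classes and genes between genotypes were tested with edgeR 4.0.16 (quasi-likelihood test, filterByExpr and TMM factors for genes, none for shares, Benjamini-Hochberg adjustment over all features, two-sided), with DESeq2 1.42.0 as an alternative. A fit needed 5 cells in every library. edgeR was tested on simulated data. Intervals are exact (95%), and a count of 0 allows 3 UMIs. Doublets were scored with Scrublet in scanpy 1.11.5 and kept, with the mean threshold of the other libraries in WT 1. P-values measure the spread between 2 mice per group.

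Named genes were rule genes and markers, the D cyclin, inhibitor and factor lists above 20 CPM, the 4 members of each other list with the highest CPM, 12 genes per direction by ratio and 8 by genotype, without immunoglobulin, receptor and unnamed genes. Ltf parts, Foxm1, Cebpa, Ms4a3 and other genes named beyond these were chosen after their values were seen. Alternatives covered the rule's limits, doublets, thinning, scaling, filters, pseudocount, DESeq2, leaving out each library and blocking on replicate number. Python 3.11.15 and R 4.3.3 were used.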

Additional observations from a re-analysis of the deposited data

How the results depend on the processing

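The log2 difference in the share of cycling immature neutrophils stayed past the threshold in all 12 alternatives, from 6.22 without D3TA 1 (adjusted p 0.0442) to 7.08 without WT 2. The difference in the cycling part of immature neutrophils changed sign at a minimum of 1000 UMIs (2.99 percentage points, exact permutation p = 1) and ranged from -11.1 to -1.04 with each library left out. Genes past 1.5-fold numbered 2748 higher and 1033 lower without a filter and 547 and 381 from 50 CPM.

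Calls between genotypes were fragile. In all immature neutrophils (23 higher, 5 lower) DESeq2 called 1 and 2, median-ratio factors 11 higher, no filter 17 lower, doublets left out 19 lower, genes with at least 10 WT UMIs 2 and 1 and cycling cells alone 10 lower. With each library left out, 0 to 20 were higher and 0 to 6 lower. In cycling cells alone (19 and 10) DESeq2 called 1 and 4 and genes with at least 10 WT UMIs 3 and 2, and leaving out libraries gave 0 to 22 and 3 to 15. Without WT 2, which held all their WT UMIs, Cstdc4 and Ctnna3 turned to higher, neither past the threshold, and their log2 differences ranged from -6.62 to 9.38 and from -4.24 to 7.87 with each library left out. The percent of cells with more S phase than G2/M UMIs (5.89) was 4.68 on all UMIs, 16.9 without Hmgb2, 5.53 without doublets and 5.66 to 6.11 by library.

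Replicate numbers are shared between genotypes, but same-numbered libraries share only a number (r = 0.146 over 2881 genes). With it as a replicate block the share differed by 6.55 (adjusted p 4.59e-04), and 29 and 6 genes were called in all immature neutrophils and 26 and 7 in cycling cells. What causes these changes was not tested.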
